A study of Homo sapiens with 9 samples.

Results

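The serine synthesis and one-carbon enzymes were followed as 9 genes, PHGDH, PSAT1, PSPH, SHMT1, SHMT2, MTHFD1, MTHFD2, MTHFD1L and ALDH1L2, among the 19569 Ensembl gene IDs of a ribosome footprint count table. They were taken by Ensembl ID from a list of the pathway's enzymes, and each ID was found once. The counts came from Jurkat clone E6-1, an established human T lymphoblast line. There were 3 libraries of resting cells, 3 of cells activated for 5 h and 3 of cells activated for 12 h, and the study describes each trio as biological replicates. Activation used anti-CD3 antibody coated on the plate at 10 µg/mL and anti-CD28 antibody added to the medium at 5 µg/mL. The resting cells were not activated and are labelled 0 h. No unactivated library was taken at 5 h or 12 h, so activation and time in culture cannot be told apart. The antibodies engage the T cell receptor complex and its costimulatory receptor CD28, and the line is a single leukaemic clone, not a population of blood T cells. The series concerns repression by miRNAs during T cell activation.

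Cells make serine from the glycolytic intermediate 3-phosphoglycerate. PHGDH oxidises it, PSAT1 transfers an amino group to the product, and PSPH removes the phosphate to release serine. SHMT1 in the cytosol and SHMT2 in mitochondria then split serine into glycine and a carbon unit carried on tetrahydrofolate. In mitochondria MTHFD2 oxidises that unit and MTHFD1L releases it as formate. In the cytosol the multifunctional enzyme MTHFD1 takes formate up again for purine and thymidylate synthesis. ALDH1L2 is a mitochondrial enzyme that oxidises formyl tetrahydrofolate to carbon dioxide. Mitochondrial one-carbon enzymes are known to be induced when primary T cells are activated.

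Library totals ran from 4343515 to 18506509 counts, and the correlation of log2 levels over tested genes was 0.978 to 0.987 for libraries of 1 group and 0.948 to 0.968 for libraries of different groups. Levels are CPM, footprints per library brought to the same size with edgeR's TMM factors, which were 0.9968 to 1.065 in activated libraries and 0.8954 to 0.9512 in resting libraries. A level here is a share of the scaled library, and the absolute number of footprints in a cell was not measured. In these bulk samples fewer translating cells and fewer footprints per cell cannot be told apart, and neither can more mRNA and heavier translation of each mRNA. CPM is not divided by coding length, so levels are compared between groups and not between genes. The labelled cell type was not checked against marker genes, because the sources used here pair no other Ensembl ID with a name.

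After activation the scaled footprint levels of most of these enzymes fell, and that of 1 rose for a time. At 5 h against resting cells, PHGDH rose, 6 members fell (PSAT1, PSPH, SHMT1, MTHFD1, MTHFD2 and MTHFD1L), and SHMT2 did not pass the test. Over all 13920 tested IDs, 16% rose and 18.4% fell at 5 h by edgeR's quasi-likelihood test, called at a Benjamini-Hochberg adjusted p under 0.05. The median log2 fold change was -0.52 over the 8 tested members and 0.07 over all tested IDs. ALDH1L2 did not pass the filter on low counts and was not tested. The libraries of the 2 groups did not overlap for 7 of the 8 tested members, beside 45.7% of all tested IDs. With library totals in place of TMM, SHMT2 passed as a rise and MTHFD2 no longer passed as a fall, and over all tested IDs 3112 rose and 1756 fell, beside 2230 and 2567 with TMM.

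At 12 h against resting cells none of the 8 tested members rose and 6 fell: PHGDH, PSAT1, PSPH, SHMT1, SHMT2 and MTHFD1. Over all tested IDs 15.8% rose and 19.3% fell. The median log2 fold change was -0.41 over the tested members and 0.04 over all tested IDs. The groups did not overlap for 7 of the 8 tested members, beside 45.8% of all tested IDs. With library totals 3 of the 6 falls passed, those of PSAT1, SHMT1 and MTHFD1, and over all tested IDs 3497 rose and 1671 fell, beside 2204 and 2683 with TMM. From 5 h to 12 h, MTHFD1 and MTHFD1L rose and PHGDH, SHMT1 and SHMT2 fell, beside 11.6% of all tested IDs that rose and 13.5% that fell. For that comparison the medians were -0.02 over the tested members and -0.05 over all tested IDs, and 6 of the 8 tested members did not overlap, beside 39.1% of all tested IDs. Without 12 h replicate 1, 3 of these 5 changes passed, those of PHGDH, SHMT2 and MTHFD1L. The comparisons of 5 h and of 12 h with resting cells share the resting libraries. The adjusted p-values set each difference against the spread between libraries of this 1 clone only.

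**Figure D1:**
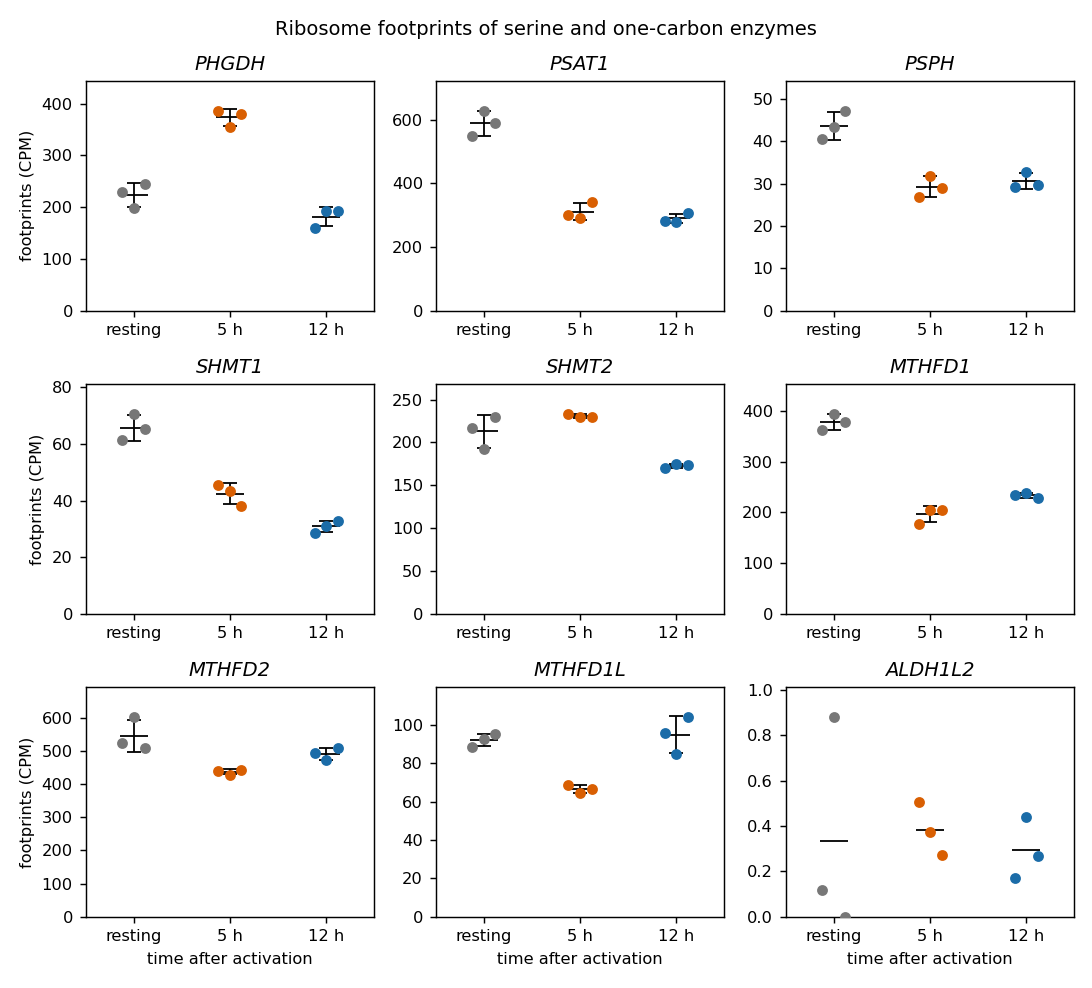
Footprint level of each enzyme in CPM (vertical axis, from 0, a different scale for each gene) in the 3 resting, 3 activated 5 h and 3 activated 12 h libraries. Points are libraries, the horizontal tick is the mean and bars are the SD (not drawn for ALDH1L2). PHGDH stood at 355 to 386 CPM at 5 h, above every resting library, while PSAT1 and MTHFD1 stood below every resting library at both times.

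PHGDH (ENSG00000092621.13), the enzyme that commits 3-phosphoglycerate to serine, was the only tested member that rose at 5 h. It had 386, 355 and 381 CPM at 5 h, against 229, 198 and 244 CPM in resting cells. Every 5 h library lay above every resting library, and the means were 374 ± 16.9 and 224 ± 23.6 CPM (SD, n = 3 each). The log2 fold change was 0.74 ± 0.095 (SE), or 1.67-fold, with an edgeR adjusted p of 1.57e-06. Of all tested IDs, 79.9% had a lower fold change, so the rise was not extreme for this time point. At 12 h PHGDH had 160, 193 and 192 CPM, all below the lowest 5 h value. The log2 fold change of 12 h against 5 h was -1.04 ± 0.097 (SE), with an edgeR adjusted p of 2.11e-08. Of all tested IDs, 6.00% had a lower value in that comparison.

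The 12 h level of PHGDH was also below rest, by a small margin. Its mean of 182 ± 18.9 CPM at 12 h stood against 224 CPM in resting cells, a log2 fold change of -0.30 ± 0.097 (SE) with an edgeR adjusted p of 0.0174. The call was lost without resting replicate 3 (adjusted p = 0.0895), without 12 h replicate 1 (adjusted p = 0.126) and when only IDs with at least 50 counts in 3 libraries were kept (adjusted p = 0.0634). With library totals in place of the TMM factors the log2 value was -0.12 (adjusted p = 0.373), under a scaling that moved the median of all tested IDs by 0.15 at 5 h and 0.19 at 12 h against resting cells.

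PSAT1 (ENSG00000135069.14), the aminotransferase that acts directly after PHGDH, moved the other way at 5 h and did not return. It had 300, 291 and 342 CPM at 5 h, against 549, 627 and 588 CPM in resting cells. At 12 h it had 283, 278 and 307 CPM. All 6 activated libraries lay below all 3 resting ones, and the 5 h and 12 h libraries overlapped. The log2 fold change was -0.92 ± 0.084 (SE) at 5 h (edgeR adjusted p = 8.41e-09) and -1.02 ± 0.085 at 12 h (edgeR adjusted p = 1.86e-09). At 5 h 4.19% of all tested IDs had a lower fold change, and at 12 h 4.91%. The difference of 12 h from 5 h was -0.11, with a 95% interval from -0.28 to 0.07.

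PSPH (ENSG00000146733.14), the phosphatase that completes serine synthesis, also fell and stayed low. It had 26.9, 31.9 and 29.1 CPM at 5 h, against 40.6, 43.4 and 47.2 CPM in resting cells. At 12 h it had 29.3, 32.8 and 29.8 CPM. Its log2 fold change was -0.58 ± 0.13 (SE) at 5 h and -0.52 ± 0.14 at 12 h, with edgeR adjusted p-values of 0.00167 and 0.00493. No resting library overlapped an activated one. With library totals in place of TMM the 12 h fall of PSPH did not pass the test, at -0.33 with an adjusted p of 0.0657. Between 12 h and 5 h the difference was 0.06, with a 95% interval from -0.23 to 0.34.

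The divergence of PHGDH and PSAT1 does not depend on library scaling, since the ratio of their counts is taken within each library. A ratio of counts from different genes depends on their lengths, so only its change between groups is read. The ratio of PHGDH to PSAT1 counts averaged 1.21 ± 0.087 at 5 h and 0.383 ± 0.058 in resting cells (SD, n = 3 each). It ran from 1.11 to 1.29 at 5 h and from 0.316 to 0.417 at rest, with no overlap. At 12 h it averaged 0.629 ± 0.065, between the other groups and overlapping neither. PSPH followed PSAT1 more closely: the PSPH to PSAT1 ratio averaged 0.0947 ± 0.013 at 5 h, 0.106 ± 0.011 at 12 h and 0.0745 ± 0.0056 at rest. No activated library had a PSPH to PSAT1 ratio as low as a resting one.

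RefSeq promoter windows were available for 6 of the 9 members. The 250 bases before the RefSeq start are shown for PHGDH and PSAT1 because these consecutive steps moved in opposite directions at 5 h. They lie at chr1:119711684-119711933 and chr9:78296875-78297124, both on the plus strand of GRCh38.p14, and are printed 5′ to 3′. Capitals would mark an E-box, CACGTG, the motif bound by MYC and related factors, or TGATGNAAT, the composite element known to bind ATF4 with C/EBP factors. Neither window holds either motif on either strand.
PHGDH: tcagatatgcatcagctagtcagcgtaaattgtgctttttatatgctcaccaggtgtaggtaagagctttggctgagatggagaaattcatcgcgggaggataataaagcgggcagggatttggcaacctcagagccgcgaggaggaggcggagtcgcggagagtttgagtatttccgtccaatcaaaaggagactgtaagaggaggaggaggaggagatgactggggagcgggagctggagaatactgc
PSAT1: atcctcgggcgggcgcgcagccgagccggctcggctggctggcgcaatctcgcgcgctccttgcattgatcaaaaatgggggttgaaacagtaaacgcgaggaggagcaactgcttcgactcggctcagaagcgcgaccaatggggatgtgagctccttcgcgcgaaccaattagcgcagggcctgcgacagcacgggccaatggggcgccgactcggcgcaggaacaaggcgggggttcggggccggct

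Their base composition differs, with 51.2% G or C for PHGDH and 65.6% for PSAT1. PSAT1 holds the GC box letters GGGCGG at 1 place and PHGDH at none, beside 42.6% of all 35116 promoter windows in the RefSeq table that hold them. Absence of a motif says only that its letters are not in these 250 bases.

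The cytosolic and mitochondrial serine hydroxymethyltransferases behaved differently at 5 h. SHMT1 (ENSG00000176974.20), the cytosolic enzyme, had 45.5, 43.5 and 38.2 CPM at 5 h, against 61.3, 70.6 and 65.2 CPM in resting cells. It was lower again at 12 h, at 28.7, 31.1 and 32.8 CPM, and the 3 groups did not overlap. Its log2 fold change was -0.63 ± 0.12 (SE) at 5 h (edgeR adjusted p = 0.000276) and -1.09 ± 0.13 at 12 h (edgeR adjusted p = 4.62e-07). Of all tested IDs, 4.25% had a lower fold change at 12 h. The step from 5 h to 12 h was -0.46 ± 0.13, with an edgeR adjusted p of 0.00997. Without 12 h replicate 1 that step was -0.40 and did not pass the test, with an adjusted p of 0.0614.

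SHMT2 (ENSG00000182199.11), the mitochondrial enzyme, had 233, 229 and 229 CPM at 5 h, against 217, 192 and 230 CPM in resting cells. The groups overlapped, the log2 fold change was 0.11 with a 95% interval from -0.07 to 0.29, and the edgeR adjusted p was 0.341. With library totals in place of TMM it passed the test at 0.26, with an adjusted p of 0.0252. At 12 h SHMT2 had 170, 175 and 173 CPM, below every library of both other groups. Its log2 fold change was -0.42 ± 0.088 (SE) against 5 h, with an edgeR adjusted p of 0.000969. Against resting cells it was -0.30 ± 0.089, with an edgeR adjusted p of 0.0098. The fall against rest was lost without resting replicate 3 (-0.26, adjusted p = 0.0551) and with library totals (-0.12, adjusted p = 0.314), while the fall against 5 h passed in every alternative run.

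MTHFD1 (ENSG00000100714.17), the cytosolic enzyme that takes up formate, fell at 5 h by about as much as PSAT1. It had 178, 205 and 205 CPM at 5 h, against 363, 394 and 378 CPM in resting cells. At 12 h it had 234, 239 and 228 CPM, above every 5 h library and below every resting one. The log2 fold change was -0.95 ± 0.084 (SE) at 5 h and -0.70 ± 0.084 at 12 h, with edgeR adjusted p-values of 4.82e-09 and 6.76e-07. At 5 h 3.77% of all tested IDs had a lower fold change. The partial return of 0.25 ± 0.084 between 5 h and 12 h passed the test narrowly (edgeR adjusted p = 0.0304). It did not pass without 5 h replicate 1 (0.18, adjusted p = 0.15), without any 1 of 12 h replicates 1, 2 and 3 (adjusted p = 0.0888, 0.122 and 0.0767), or with no filter on low counts (0.23, adjusted p = 0.077).

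MTHFD2 (ENSG00000065911.13), the mitochondrial dehydrogenase and cyclohydrolase, showed a smaller dip. It had 440, 429 and 444 CPM at 5 h, against 524, 602 and 510 CPM in resting cells. At 12 h it had 494, 472 and 508 CPM, between the other groups and just below the lowest resting library. The fall at 5 h was -0.32 ± 0.078 on the log2 scale (SE), with an edgeR adjusted p of 0.00261. With library totals the 5 h fall was -0.17 and did not pass the test (adjusted p = 0.0545). At 12 h the log2 fold change against rest was -0.15, with a 95% interval from -0.31 to 0.01 (edgeR adjusted p = 0.148), and its sign turned with library totals, to 0.04. Between 12 h and 5 h the difference of 0.17 did not pass the test (edgeR adjusted p = 0.126). It did pass in 5 of the alternatives, at 0.20 or 0.21, under DESeq2, limma on the authors' log2 values, library totals, the stricter count filter and the fit of the 6 libraries alone.

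MTHFD1L (ENSG00000120254.16), the mitochondrial formate-releasing enzyme, dipped at 5 h, and at 12 h its difference from rest did not pass the test. It had 68.7, 64.5 and 66.8 CPM at 5 h, against 88.7, 92.4 and 95.1 CPM in resting cells. At 12 h it had 95.9, 84.9 and 104 CPM, which overlapped the resting libraries and lay above every 5 h library. The log2 fold change was -0.47 ± 0.10 (SE) at 5 h (edgeR adjusted p = 0.0011) and 0.51 ± 0.10 for 12 h against 5 h (edgeR adjusted p = 0.000677). Of all tested IDs, 87.1% had a lower value in the 12 h against 5 h comparison. Against rest the 12 h value was 0.05, with a 95% interval from -0.17 to 0.26 (edgeR adjusted p = 0.776). Its sign turned without 12 h replicate 3, to -0.03, and with library totals it was 0.24 (edgeR adjusted p = 0.0748).

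ALDH1L2 (ENSG00000136010.14) was at the edge of detection. It had 5 counts in each 5 h library and 2 in each 12 h library, against 1, 8 and 0 counts in the resting libraries. The 0 in resting replicate 3 allows up to 0.311 CPM, taken as 3 counts, and resting replicate 2 gave 8 of the 9 resting counts. The ratio of pooled CPM was 1.09 at 5 h against rest, with an exact 95% counting interval from 0.448 to 2.83, and 0.769 at 12 h against rest, from 0.225 to 2.42. The pooled counts are compatible with any ratio within these intervals. The intervals and the 0.311 CPM limit cover counting error only, and not the spread between libraries of a group.

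**Figure D2:**
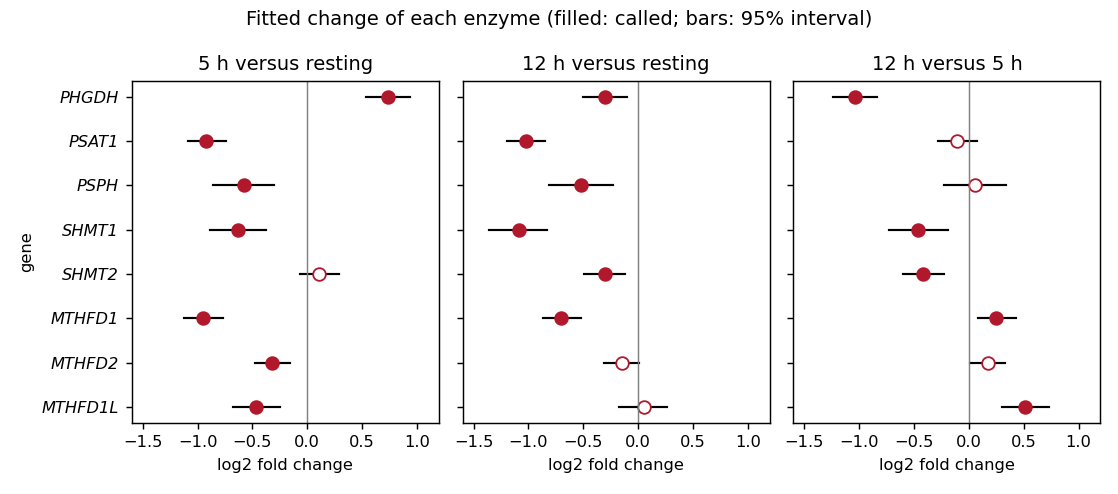
Fitted log2 fold change of the 8 tested enzymes (horizontal axis) in 3 comparisons, with the 95% interval of the edgeR fit as bars; filled points passed the test and open points did not. PHGDH stood at 0.74 at 5 h against rest and at -1.04 at 12 h against 5 h, and MTHFD1L stood at -0.47 and 0.51. With library totals in place of TMM, MTHFD2 at 12 h against rest changed sign, to 0.04.

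Set side by side, the mitochondrial enzyme of each pair held its footprint level better against resting cells than its cytosolic counterpart. The ratio of SHMT2 to SHMT1 counts within a library averaged 5.46 ± 0.46 at 5 h and 5.61 ± 0.33 at 12 h, against 3.26 ± 0.47 at rest (SD, n = 3 each). The highest resting ratio was 3.55 and the lowest activated one 5.13. MTHFD2 to MTHFD1 averaged 2.24 ± 0.20 at 5 h and 2.11 ± 0.12 at 12 h, against 1.44 ± 0.09 at rest. Its lowest activated value was 1.98 and its highest resting value 1.53. MTHFD1L to MTHFD1 averaged 0.342 ± 0.038 at 5 h and 0.406 ± 0.049 at 12 h, against 0.244 ± 0.0085 at rest. All activated libraries thus lay above all resting libraries in each of these ratios, which library scaling cannot change. The ratios of MTHFD2 and of MTHFD1L share MTHFD1, so its fall raises both and they are not independent. These pairs were chosen after the values were seen, and their ratios are given without a test.

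Among the mitochondrial enzymes the ratio of SHMT2 to MTHFD2 counts was 0.526 ± 0.009 at 5 h, against 0.394 ± 0.068 at rest (SD, n = 3 each), and these groups did not overlap. The 12 h ratio was 0.351 ± 0.017, below every 5 h library and within the resting range. The ratio of MTHFD1L to MTHFD2 counts was 0.193 ± 0.012 at 12 h, against 0.152 ± 0.0033 at 5 h, and the groups did not overlap. At rest it was 0.170 ± 0.017, which overlapped both the 5 h and the 12 h ranges. PHGDH and SHMT2 kept a ratio of 1.05 ± 0.096 at 12 h and 1.05 ± 0.016 at rest, while at 5 h it was 1.62 ± 0.063 and overlapped neither group.

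**Figure D3:**
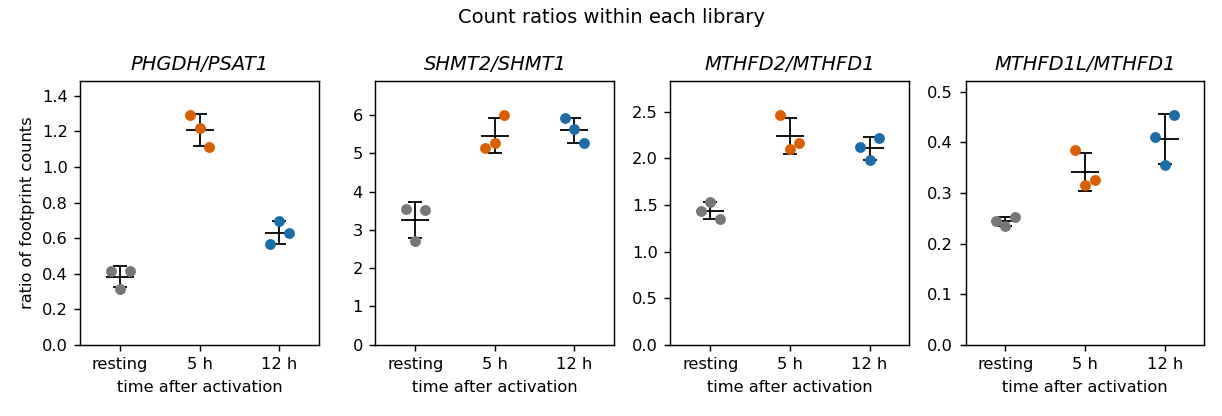
Ratio of footprint counts of paired enzymes within each library (vertical axis, from 0, no unit) in resting, 5 h and 12 h cells; points are libraries, ticks means and bars the SD. The PHGDH to PSAT1 ratio peaked at 5 h, at 1.11 to 1.29, and the 3 mitochondrial to cytosolic ratios lay above the resting libraries in all activated libraries.

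MTHFD1 and MTHFD1L were the tested members that rose between 5 h and 12 h, and their promoter sequences are shown for that reason. This pair of risers depends on the setting: the rise of MTHFD1 was lost in 5 alternatives, with adjusted p-values of 0.0767 to 0.15, and MTHFD2 passed as a rise in 5, with adjusted p-values of 0.0219 to 0.0443. Among the 6 members with a promoter entry, only MTHFD1 and MTHFD1L had a window with an E-box (CACGTG, its own reverse complement). A link of the motif to the rise was not tested. MTHFD1L has 4 RefSeq entries and held the motif in entries 1 and 3, while each other member had 1 window. Of all promoter windows, 6.34% hold an E-box. In MTHFD1 it begins 15 bases before the RefSeq start, in the window at chr14:64388103-64388352 on the plus strand of GRCh38.p14, where capitals mark it.
MTHFD1: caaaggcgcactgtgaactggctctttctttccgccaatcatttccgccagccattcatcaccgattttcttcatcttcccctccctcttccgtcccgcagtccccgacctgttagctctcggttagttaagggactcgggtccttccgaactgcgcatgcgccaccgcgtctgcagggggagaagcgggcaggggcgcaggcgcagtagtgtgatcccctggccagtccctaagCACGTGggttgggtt

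RefSeq lists 4 starts for MTHFD1L, so only the stretches of 30 bases around its motifs are shown, from entry 1, with the motif in capitals. The E-box stretch lies at chr6:150866320-150866349 and the stretch with TGATGNAAT, which 0.888% of all promoter windows hold, at chr6:150866347-150866376, both on the plus strand.
MTHFD1L E-box: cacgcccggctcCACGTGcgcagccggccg
MTHFD1L composite element: ccgccggctcTGATGCAATcgcgccgggcg

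The windows of MTHFD1L entries 1 and 3 cover the same E-box and the same composite element, and those of entries 2 and 4 hold neither. The RefSeq span of the MTHFD1L gene begins at chr6:150865702, ahead of all 4 windows. These motifs thus lie inside the annotated gene, before later starts. None of the 6 members' windows held the cyclic AMP response element TGACGTCA, which 1.65% of all windows hold. SHMT1 and MTHFD2, like PHGDH and PSAT1, held neither an E-box nor the composite element. All motifs were searched on both strands, the E-box and the composite element did not overlap in any of these windows, and a match is a description of the sequence and not a site of binding.

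Together the 9 members took 0.172% ± 0.00337 of all counts at 5 h and 0.161% ± 0.00568 at 12 h, against 0.199% ± 0.00608 in resting cells (SD, n = 3 each). No activated library reached the lowest resting share of 0.1928%, and the highest activated share was 0.1755%. PHGDH made up 22.1% ± 0.765 of the members' counts at 5 h, against 10.4% ± 1.32 at rest. MTHFD2 made up 32.2% ± 0.867 at 12 h, against 25.3% ± 1.74 at rest. Its own level did not rise, with means of 492 CPM at 12 h and 545 CPM at rest. A share of the members' counts depends on the other members too. PSAT1 gave 18.4% ± 1.12 at 5 h and 19.0% ± 0.513 at 12 h, against 27.3% ± 0.885 at rest.

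**Figure D4:**
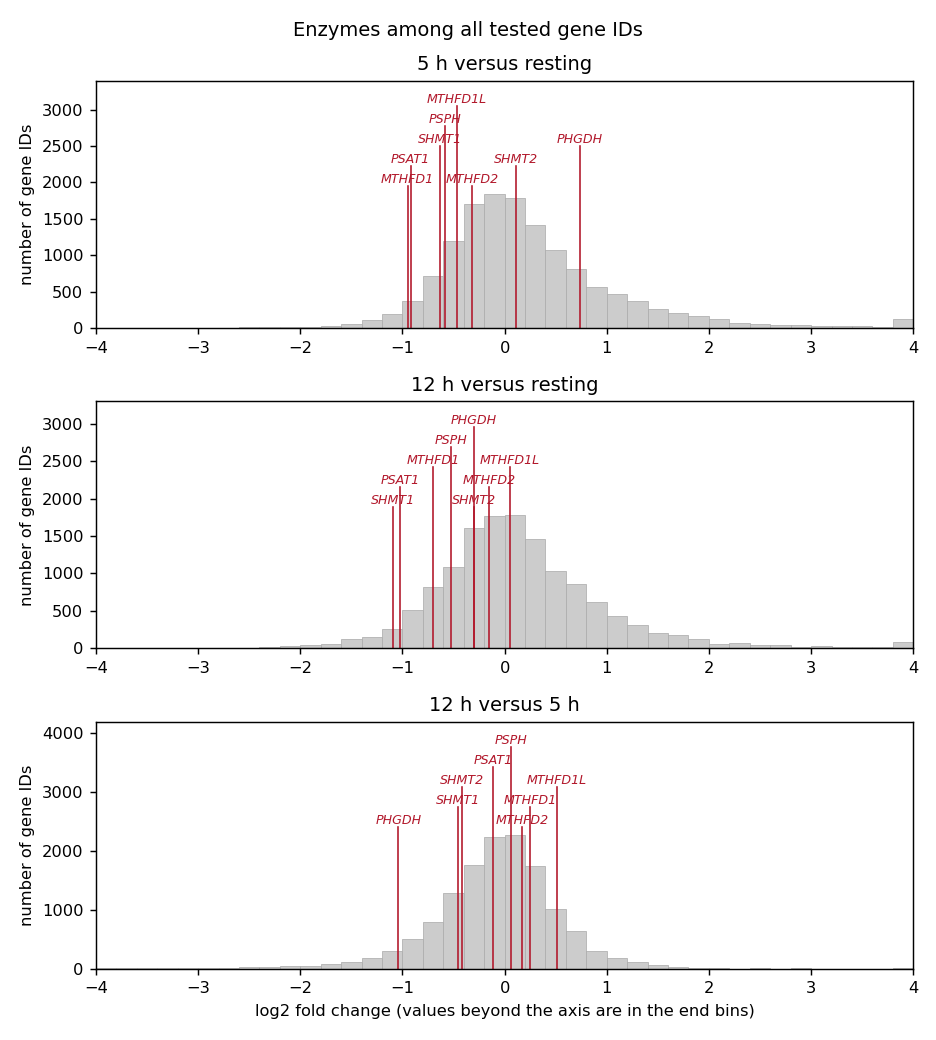
Number of tested gene IDs (vertical axis) by log2 fold change (horizontal axis, bins of 0.2, values beyond 4 in the end bins) in the 3 comparisons, with the 8 tested enzymes as red lines. Most enzymes lie left of the centre in both comparisons with resting cells, where the members' medians were -0.52 and -0.41 and those of all tested IDs 0.07 and 0.04.

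Some other IDs had courses close in shape to those of PHGDH and MTHFD2, the members searched. A correlation compares the shape of a course and not the size of its changes. For PHGDH the 3 IDs most like it over the 9 libraries, among 7741 IDs averaging at least 16 CPM, had Pearson correlations of log2 CPM of 0.981 to 0.993. The closest, ENSG00000128228.5, had a log2 fold change of 0.93 at 5 h against rest and -1.45 at 12 h against 5 h. The next, ENSG00000075240.17, had 0.70 and -0.97. For MTHFD2 the 3 closest had correlations of 0.964 to 0.979, and the first of them, ENSG00000115947.14, had -0.63 at 5 h and -0.40 at 12 h against rest. MTHFD2 itself had smaller changes, of -0.32 and -0.15. These are the highest of 7741 values each and describe the libraries only, and the sources used here give no names for these IDs.

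PSAT1, PSPH, SHMT1, MTHFD1 and MTHFD2 have pseudogenes named after them in RefSeq, 4 for PSAT1, 7 for MTHFD2 and 1 for each of the others. Footprints are short, and the sources used here do not say how fragments matching several genes were counted. The levels of these members are uncertain to that extent. No other ID had the same counts as a member in every library. That check finds only identical rows, so it cannot show whether footprints were shared with a pseudogene.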

How the data were processed

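Ribosome footprints were counted in 9 Jurkat libraries. The deposited table holds whole-number counts per versioned Ensembl gene ID, made by the authors with no normalization. Per the submitters' processing notes cutadapt 3.2, Bowtie, bedtools, RSEM, DESeq2 and GRCh38.p13 were used, with no step named for each. The sources used here do not describe the isolation of footprints. A second deposited table holds the authors' log2 values for 11572 IDs; log2 of the count over a size factor for each library, plus 1, matched them to within 5.03e-09. It served only as an alternative.

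Counts of all 9 libraries entered 1 fit with edgeR 4.0.16 in R 4.3.3: filterByExpr, TMM, the quasi-likelihood test and Benjamini-Hochberg adjustment over 13920 IDs. SE is the log2 fold change over the square root of the F statistic. The procedure was tested on simulated data. Alternatives used DESeq2 1.42.0, limma 3.58.1, other scalings and filters, the 6 libraries compared, a replicate block and each library left out.

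All members were named. Members and lists were chosen with earlier results of these data known. Lists of neighbouring pathway genes and of markers, and levels per coding length, were planned but not used, because the reference tables pair no Ensembl ID with a symbol and no coding lengths were at hand. Promoters came from RefSeq on GRCh38.p14, taken as the 250 bases before each start.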

Additional observations from a re-analysis of the deposited data

Results flagged for a closer look

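Levels differed between the activated time points for 5 of the 8 tested enzymes, tested directly as 12 h against 5 h with edgeR. Of all tested IDs, 11.6% rose and 13.5% fell in that comparison. Without 12 h replicate 1 the levels differed for 3 enzymes. No unactivated library matches either time, so activation and time in culture cannot be told apart here. The difference was -1.04 on the log2 scale for PHGDH, -0.46 for SHMT1, -0.42 for SHMT2, 0.25 for MTHFD1 and 0.51 for MTHFD1L. The difference of MTHFD1 did not pass in 5 alternatives, with adjusted p-values of 0.0767 to 0.15. For PHGDH the changes at the 5 h and 12 h time points had opposite signs against rest, at 0.74 and -0.30, and the later one did not hold in every alternative. Groups of 3 libraries are too small to tell whether a single library is an outlier, and the only check was to leave each library out.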

How the results depend on the processing

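At 5 h against rest 7 members passed the test in every alternative, including each library left out; they were the same 7 except with library totals, where SHMT2 stood in place of MTHFD2. At 12 h against rest 6 passed, 4 to 6 with 1 library left out, and 3 with library totals in place of TMM, which was chosen after seeing the data. At 12 h against 5 h 5 passed, and 3 to 5 with 1 library left out, the 3 being without 12 h replicate 1. With the replicate number as a block 7, 6 and 5 members passed, and no call of a member changed. Deviations of same-numbered libraries from their group means had correlations of -0.0625 to 0.0901 over 9 pairs. These values cannot show whether a number marks a shared culture or day, which the labels do not state. Signs turned in 3 values that passed no test: MTHFD2 at 12 h against rest was 0.04 with library totals, MTHFD1L there ran from -0.03 (without 12 h replicate 3) to 0.1 with 1 library left out, and PSPH at 12 h against 5 h from -0.0036 (without 5 h replicate 1) to 0.12. The members' share of counts was 0.169% at 5 h, 0.153% at 12 h and 0.215% at rest on the TMM scale, and 0.128%, 0.109% and 0.148% without MTHFD2. The cause of each of these changes was not tested, apart from the fewer libraries, the other scaling or the member left out by construction. Alternatives for neighbouring pathway genes and for levels per coding length were not run. ALDH1L2, with 0 to 8 counts a library, did not pass the filter on low counts.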
